A study of Mus musculus with 3 samples.

Results

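Hand2-positive smooth muscle cells of the mouse aorta were picked out of single-cell RNA-seq counts by the transcripts they held, and 4088 of 17512 gated smooth muscle cells met the rule, or 23.3% (exact Clopper-Pearson 95% interval 22.7 to 24.0). The cells came from male mice whose Apoe gene had been exchanged at its own locus for human APOE2, APOE3 or APOE4 on a C57BL/6J background, so that all groups lacked the mouse protein and no group carried mouse Apoe. From 12 weeks of age the mice ate a Western diet with 42% of its calories as fat and 0.2% cholesterol for 16 weeks. Whole aortas, from the arch to the iliac bifurcation, were minced and enzymatically digested, and the cells of 6 APOE2, 5 APOE3 or 7 APOE4 mice were pooled into 1 droplet library per genotype. The study asked how the human apoE isoforms shape the cells of the aortic wall under this diet. With 1 library per genotype and no record of the mouse of origin, nothing could be tested between genotypes, and all intervals cover counting error only.

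The members were chosen by their own measured counts of unique molecular identifiers (UMIs), which mark each captured transcript. A cell needed at least 200 genes, under 20% mitochondrial UMIs and at least 5000 UMIs. The smooth muscle gate asked that Acta2 (smooth muscle actin) and Tagln (transgelin) together took at least 2% of the UMIs and Dcn (decorin, a fibroblast proteoglycan) under 0.5%. Hand2-positive cells then held at least 2 UMIs of Hand2 and Hand2os1, none of Hoxa7, Hoxb7, Hoxb8 and Sema3a, and under 4 of Dlx5, Dlx6, Dlx6os1, Prss12 and Msx2 in sum. The levels of these genes and of Tnnt2, Pln and Psd, the markers named with the rule, are therefore given as a description. The members were compared with 2 classes of the same gate. The 4901 Hox-positive cells held at least 2 UMIs of the Hox and Sema3a set, none of Hand2 and Hand2os1 and under 4 of the Dlx set. The 256 Dlx-positive cells held at least 4 UMIs of the Dlx set and none of the Hox set, with any Hand2. A further 730 cells held at least 2 UMIs of Hand2 and Hand2os1 together with Hox set UMIs. The other 7537 cells met none of these definitions, because they held too few UMIs of a set or a mixture of sets.

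Hand2 is a basic helix-loop-helix transcription factor that binds E-box motifs in DNA and is needed for the right ventricle, the cardiac outflow tract and the pharyngeal arch arteries. Smooth muscle of the ascending aorta and arch descends largely from cardiac neural crest and second heart field, whereas that of the descending aorta descends from somites. Hox genes are switched on in order along the body axis, and a cell's Hox set keeps a trace of the level at which its precursors arose. The labels do not record where along the aorta a cell lay, so an arch origin of the Hand2-positive cells could not be checked against position, and how much of each aortic segment entered a pool cannot be told apart from genotype.

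Hand2 (ENSMUSG00000038193) lies on the plus strand of chromosome 8 at 57320983 to 57324633 of GRCm38, and Hand2os1 (ENSMUSG00000100510), a long noncoding RNA read from the other strand, overlaps it at 57281117 to 57324233. Whether the counting used strand is not given in the sources used here, so UMIs of the pair may have been exchanged, which leaves their sum unchanged. Promoter sequence was looked up for the 5 genes that name the cells, and 5 of 5 were found in the RefSeq promoter table of GRCm38.p6. Tnnt2 had 2 windows there, of which only 1 is printed. The start regions of Hand2, of Tnnt2 (cardiac troponin T, ENSMUSG00000026414) and of Pln (phospholamban, ENSMUSG00000038583), the brake on the calcium pump of cardiac muscle, are printed 5′ to 3′ on the plus strand, because Hand2 binds E-boxes and its cardiac partner Gata4 binds GATA words. Capitals mark E-boxes (CANNTG) and GATA words (the letters GATA after an A or a T and before an A or a G), searched on both strands.
Hand2, chr8:57320860-57320982, the 123 bases between its start and a start of Hand2os1: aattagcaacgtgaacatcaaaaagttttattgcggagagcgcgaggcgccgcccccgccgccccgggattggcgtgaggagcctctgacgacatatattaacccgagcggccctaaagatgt
Tnnt2, chr1:135836184-135836333, the 150 bases before its start: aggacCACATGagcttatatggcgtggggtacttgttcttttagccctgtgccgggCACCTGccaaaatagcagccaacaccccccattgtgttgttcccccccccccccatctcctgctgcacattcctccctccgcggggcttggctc
Pln, chr10:53337536-53337685, the 150 bases before its start: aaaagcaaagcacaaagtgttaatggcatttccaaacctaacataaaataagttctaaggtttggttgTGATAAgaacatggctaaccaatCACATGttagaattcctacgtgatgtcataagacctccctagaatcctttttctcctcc
The printed Tnnt2 window held 2 E-boxes and the Pln window 1 E-box and 1 GATA word, while neither set of letters occurred between Hand2 and Hand2os1. An E-box was found in 47.7% and a GATA word in 16% of 32851 RefSeq windows of 150 bases, so a match is a description of the sequence and not of a bound site.

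Depth was high in every library. The APOE2 members amounted to 43932525 UMIs, those of APOE3 to 26210593 and those of APOE4 to 14553710, and the median member had 16399, 22820.5 and 18513 UMIs in that order. Hox-positive cells were somewhat shallower, at 14506, 19765 and 16411, and Dlx-positive cells had 21811, 22642 and 23850.5. No Hand2-positive cell shared its barcode with a Hand2-positive cell of another library, although 79 of all deposited barcodes occurred in 2 libraries. The members were not checked against the other cells of the other libraries. The libraries differed in ways that touch the results. The median share of UMIs on immediate early and heat shock genes, which cells switch on quickly under stress, was 3.98% in the APOE4 Hand2-positive cells against 2.04% in APOE2 and 2.30% in APOE3 after thinning each cell to 5000 UMIs. The 4 haemoglobin transcripts used as erythroid markers summed to 844 UMIs per 1000000 UMIs (CPM) in Hand2-positive cells of APOE2 and 1231 in APOE4 but 102 in APOE3, against 454, 227 and 53.7 CPM in Hox-positive cells of APOE2, APOE4 and APOE3.

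Apoe (ENSMUSG00000002985, chromosome 7, 19696109 to 19699188), the exchanged gene, was counted at 156 CPM in APOE2, 181 in APOE3 and 177 in APOE4 Hand2-positive cells. These levels lay close together and did not tell the 3 alleles apart, so they could not check the genotype labels. What this row of a mouse annotation counts in animals with the human gene is not given in the sources used here, so its values are UMIs assigned to the row and no measure of mouse Apoe. Hox-positive cells had 138, 131 and 136 CPM and Dlx-positive cells 323, 330 and 318. Against Hox-positive cells the Apoe row was higher by 0.39 ± 0.05 on the log2 scale (SE, edgeR adjusted p = 0.0005952), and against Dlx-positive cells it fell by 0.80 ± 0.08 (edgeR adjusted p = 5.697e-07). The first of these calls was lost when Acta2 and Tagln had to take at least 4% of the UMIs (edgeR adjusted p = 0.106).

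Hand2-positive cells made up 34.2% of gated smooth muscle in the APOE2 library (2341 cells, exact 95% interval 33.1 to 35.4), 21.2% in APOE3 (1052 cells, 20.03 to 22.32) and 12.2% in APOE4 (695 cells, 11.3 to 13.1). The shares did not overlap in their counting intervals. Hox-positive cells ran the other way, from 1250 in APOE2 to 1498 in APOE3 and 2153 in APOE4. There were 1.87 Hand2-positive cells for each Hox-positive cell in APOE2, 0.702 in APOE3 and 0.323 in APOE4. The Dlx-positive share was small in all libraries, at 1.33%, 1.23% and 1.82%. The order of the Hand2-positive shares was APOE2, APOE3, APOE4 in every alternative tried, but their level depends on depth: with the rule applied after thinning to 5000 UMIs they were 11.0%, 4.55% and 2.95%.

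**Figure D1:**
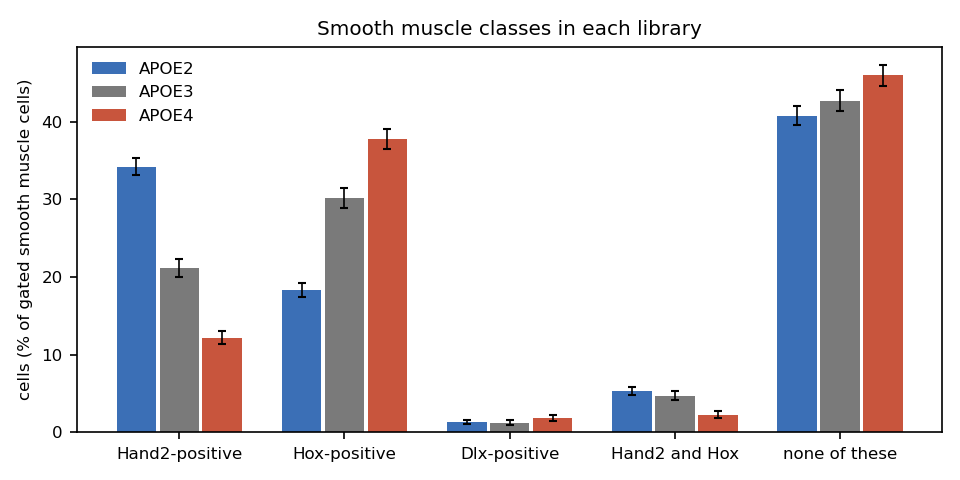
Percent of gated smooth muscle cells in each class (vertical axis) by library, with exact 95% intervals for counting error as error bars. The Hand2-positive bar falls from 34.2% in APOE2 to 21.2% in APOE3 and 12.2% in APOE4, while the Hox-positive bar rises.

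Most Hand2-positive cells sat near the threshold. The sum of Hand2 and Hand2os1 had a median of 3 UMIs in each library and reached 15 in APOE2, 19 in APOE3 and 14 in APOE4. It was exactly 2 in 32.6% of APOE2, 28.6% of APOE3 and 37.6% of APOE4 members. Both transcripts were seen in the same cell in 53.2%, 50.6% and 43.3% of members. The Dlx set was at 0 in 92.7%, 91.2% and 89.9%.

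By level, Hand2 stood at 142 CPM in APOE2, 120 in APOE3 and 131 in APOE4 members, and Hand2os1 at 55.5, 38.8 and 31.7. The gate itself required Acta2 and Tagln, so the smooth muscle markers are a description. All 10 were present and summed to 57003, 61366 and 56485 CPM, against 59821, 64223 and 59882 in Hox-positive cells. Acta2 alone took 23515, 26999 and 25503 CPM of the members' sum. Of 12 cardiomyocyte markers, 8, 9 and 8 were under 1 CPM, and their sum of 57.7, 50.6 and 51.9 CPM came mostly from Actn2 (alpha-actinin-2) at 36.4, 28.2 and 28.3, with 42.3, 38.0 and 39.6 for the same sum in Hox-positive cells. Apart from haemoglobin, given above, the most abundant of the other marker lists was that of fibroblasts, which summed to 449, 550 and 390 CPM (Col1a1 highest) against 319, 441 and 410 in Hox-positive cells. In the members, endothelial markers summed to 24.0, 16.1 and 29.3 (Pecam1 highest), macrophage markers to 61.6, 5.04 and 11.3, and Schwann markers to 2.28, 2.17 and 1.86. T lymphocyte markers came to 1.21, 0.153 and 0.0687 CPM, B lymphocyte markers to 1.87, 0.382 and 7.70, and brown adipocyte markers to 7.33, 17.7 and 16.6, nearly all of it Cidea.

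Tnnt2, the troponin that anchors the calcium switch to cardiac thin filaments, was more abundant than Psd or Pln in each library. It reached 377 CPM in APOE2, 193 in APOE3 and 97.4 in APOE4 Hand2-positive cells, against 29.9, 25.6 and 19.4 in Hox-positive cells and 74.2, 85.7 and 16.3 in Dlx-positive cells. Every Hand2-positive library was above every Hox-positive library, and the Hand2-positive level itself fell from APOE2 to APOE4. After thinning to 5000 UMIs, 42.8%, 33.6% and 19.1% of members held a Tnnt2 UMI, compared with 7.92%, 7.01% and 5.48% of Hox-positive cells. Among Ptprc-positive leukocytes, which should lack the gene, the share was 2.94%, 1.35% and 0.641%, at full-depth medians of 9520, 9145.5 and 8579 UMIs.

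Psd (ENSMUSG00000037126, chromosome 19), an exchange factor for the small GTPase ARF6, had the same order of libraries, with 34.7 CPM in APOE2, 20.8 in APOE3 and 8.93 in APOE4, against 0.737, 0.551 and 0.722 in Hox-positive cells. Its gene overlaps Nfkb2 on the genome. Pln did not share that order, at 21.6, 24.2 and 15.1 CPM, against 3.19, 3.09 and 5.47 in Hox-positive cells. A Pln UMI was held by 8.50%, 10.2% and 7.63% of thinned members and by 1.92%, 1.13% and 1.44% of thinned Hox-positive cells.

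**Figure D2:**
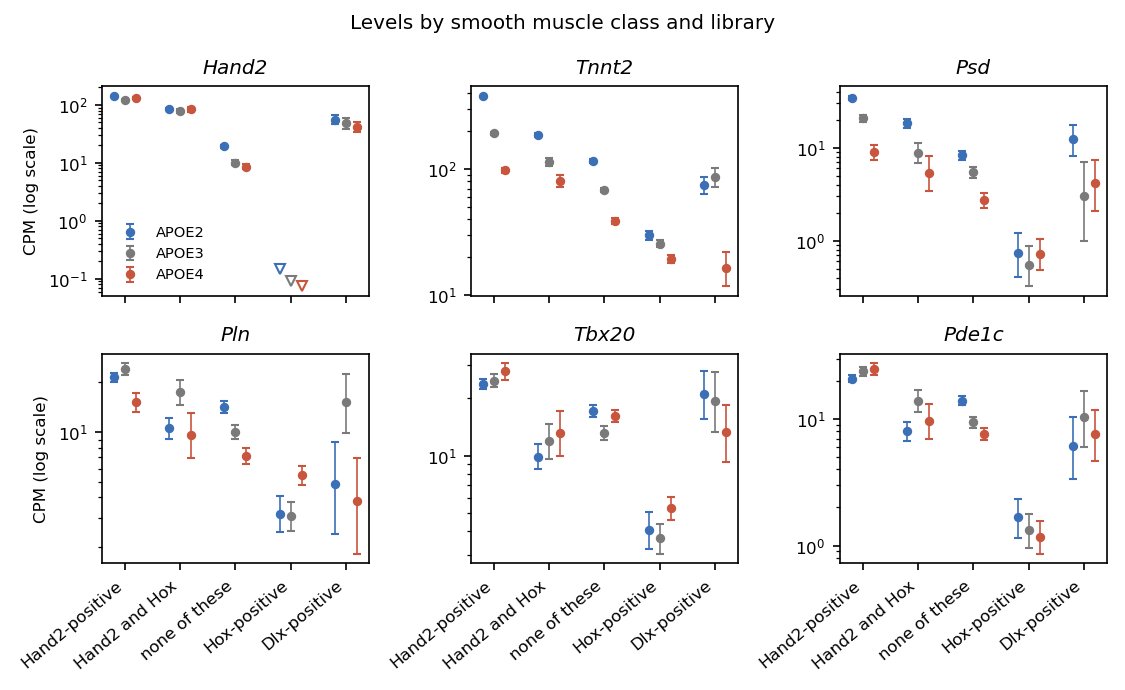
Level in CPM (log axis) of Hand2, Tnnt2, Psd, Pln, Tbx20 and Pde1c in the 5 classes of gated smooth muscle, 1 point per library, with exact Poisson 95% intervals as error bars; an open triangle is the limit of 3 UMIs where none was counted. Tnnt2 in Hand2-positive cells spreads from 97.4 to 377 CPM over the libraries, whereas Tbx20 stays between 23.9 and 27.8.

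Values of cells just inside and outside the threshold are given as a description. Among cells without Hox set UMIs and with under 4 Dlx set UMIs, Tnnt2 in APOE2 was 85.5 CPM where Hand2 and Hand2os1 summed to 0 UMIs, 209 at 1, 211 at 2, 409 at 3 to 5 and 524 at 6 or more. In APOE3 it was 64.3, 95.1, 136, 205 and 222, and in APOE4 36.0, 75.0, 78.9, 102 and 120. Tnnt2 was lowest at 0 and highest at 6 or more UMIs in every library, although the levels at 1 and 2 UMIs lay close together in APOE2 and APOE4. Depth moved with these steps too, from a median of 12304.5 UMIs per cell at 0 to 22346 at 6 or more in APOE2. Over the members thinned to 5000 UMIs each, Hand2 and Tnnt2 showed next to no correlation (Spearman's rho -0.03, 0.0044 and -0.06 in APOE2, APOE3 and APOE4), nor did Hand2 and Psd (-0.01, -0.02 and -0.01), in sparse counts of cells that share a library. Because the rule had already cut the range of Hand2 among members, these correlations cannot be set against the steps above. Tbx20 differed: in APOE2 it was 16.5 CPM at 0 UMIs and then 24.0, 24.6, 24.1 and 22.4. At the Hox threshold, the cells left out for 1 Hox set UMI (114, 98 and 54 cells) had 218, 107 and 96.4 CPM of Tnnt2. At the Dlx threshold, members with 3 Dlx set UMIs (19, 5 and 8 cells) had 657, 264 and 674 CPM of Sfrp2, a secreted Wnt inhibitor high in Dlx-positive cells, and cells just outside with 4 (5, 3 and 7 cells) had 458, 294 and 1244.

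**Figure D3:**
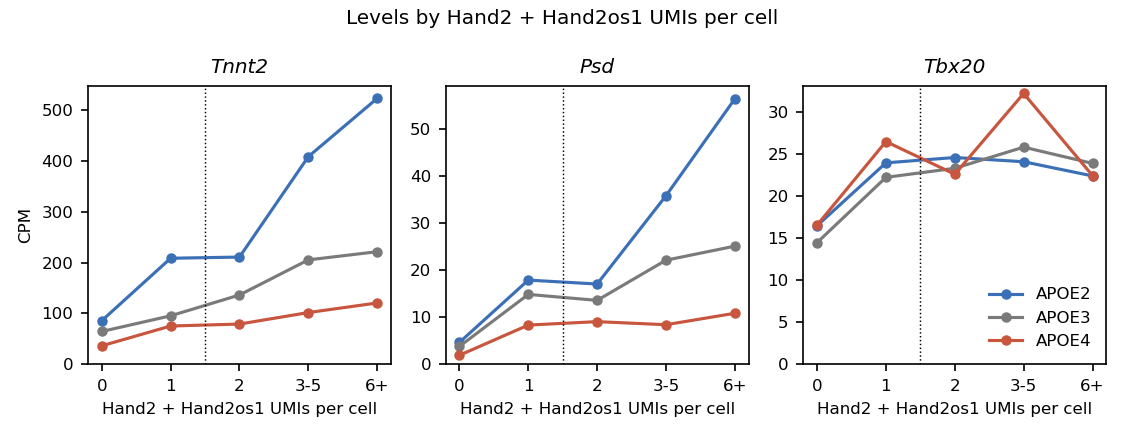
Level in CPM of Tnnt2, Psd and Tbx20 (vertical axes) by the summed UMIs of Hand2 and Hand2os1 in a cell (0, 1, 2, 3 to 5, 6 or more). Cells without Hox set UMIs and with under 4 Dlx set UMIs are shown, 1 line per library, without intervals. The dotted line marks the threshold for members. Tnnt2 in APOE2 climbs from 85.5 to 524 CPM, whereas Tbx20 goes from 16.5 to 22.4.

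The Hand2-positive and Hox-positive cells were next compared across the transcriptome, which answers in what else these classes of smooth muscle differ. For each library, the UMIs of all cells in a class were added up, so that the 3 libraries served as replicates and each supplied both classes. Of the tested transcription factors, 7 of 13 of the arch and outflow list were higher and 4 lower in Hand2-positive cells, 5 of 9 of the neural crest list were higher and 2 lower, and 2 of 19 Hox genes outside the rule were higher and 13 lower. The calcium and calmodulin-dependent phosphodiesterase Pde1c, lipoprotein lipase (Lpl), Igfbp4 and Tbx20 led the higher genes and Hoxb6, Rgs5, Vstm2b and Btc the lower ones. Of 14405 genes tested, 1239 were higher (8.6%) and 953 lower (6.62%), the shares beside which each list count against Hox-positive cells is to be read, at an adjusted p under 0.05 (edgeR quasi-likelihood test, library as a block, Benjamini-Hochberg over all genes tested), with a median log2 difference of -0.01. Without the library term the same test called 161 higher and 104 lower. Leaving out the APOE3 library gave 726 and 534.

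Tbx20, a T-box factor of heart and outflow development (ENSMUSG00000031965, chromosome 9, 24718138 to 24774303), was at 23.9, 24.8 and 27.8 CPM in APOE2, APOE3 and APOE4 Hand2-positive cells and at 4.08, 3.67 and 5.28 in Hox-positive cells. The classes were far apart in every library, with a log2 difference of 2.60 ± 0.09 (SE, edgeR adjusted p = 4.171e-09). Gata4, a zinc finger partner of Hand2 in the heart, was scarce, with 131, 47 and 13 UMIs (2.98, 1.79 and 0.893 CPM) against 2, 2 and 0 in Hox-positive cells (log2 difference 5.19 ± 0.45, edgeR adjusted p = 9.124e-06). A Gata4 UMI was found in 4.44%, 3.14% and 1.58% of members, in 7.42%, 2.54% and 4.62% of cells with both Hand2 and Hox UMIs and in 6.47%, 0.870% and 0.235% of cells in the fibroblast gate, so the order of these classes differed between the libraries. Isl1, which marks second heart field precursors, gave 152, 62 and 11 UMIs against 10, 0 and 0 (4.15 ± 0.76, edgeR adjusted p = 0.0273), a call lost without the APOE4 library, and Tcf21, a factor of epicardial and adventitial precursors, gave 137, 86 and 14 against 4, 8 and 0 (4.14 ± 0.38, edgeR adjusted p = 1.674e-05). Tcf21 UMIs were more frequent in the fibroblast gate, in 21.3%, 21.0% and 9.65% of cells against 5.08%, 6.46% and 1.87% of members, and fibroblast signal moved with the class in part: Dcn was found in 25.7%, 24.7% and 16.0% of members and 15.9%, 16.3% and 12.3% of Hox-positive cells. Its part in these differences was not tested. Across the alternatives the adjusted p of Isl1 rose as high as 0.252. Of 18 arch and outflow transcription factors listed, 13 were tested, 7 were higher and 4 lower, with a median log2 difference of 0.21. The others that rose were Tbx3, Tbx2 and, by only 0.21, Gata6, whose call was lost without the APOE3 library. Tbx18, a factor of sinus and mural precursors, was lower at 24.6, 32.5 and 25.8 CPM against 46.3, 53.9 and 50.3, and so were Foxf1 (-0.47), Foxc1 (-0.24) and Mef2c (-0.17). The calls of Foxc1 and Mef2c were lost without APOE3 and those of Foxf1 and Mef2c without APOE4, so that 2 factors were lower in either case.

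Of 15 neural crest transcription factors, 9 were tested, 5 were higher and 2 lower, with a median log2 difference of 0.65. Tfap2a, an early neural crest factor, rose most, from 2, 3 and 2 UMIs in Hox-positive cells to 83, 53 and 35 (4.78 ± 0.38, edgeR adjusted p = 4.496e-06). The others that rose were Prrx2 (1.38), Msx1 (1.09), Sox9 (0.82) and Ets1 (0.27), and Prrx1 (-0.43) and Snai2 (-0.71) fell. Without the APOE4 library Ets1 was not called. The homeobox gene Msx1 was at 12.6, 21.5 and 20.5 CPM against 6.24, 9.85 and 10.3.

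The Hox genes outside the rule are neighbours of the rule's genes and were read in the same cells, so the direction of their difference is close to built in and is described for its pattern. Of 27 listed, 19 were tested, 13 were lower and 2 higher, with a median log2 difference of -1.37. On the B cluster a step lay between Hoxb4 and Hoxb5. Hoxb2 (29.2, 28.3 and 24.3 CPM against 51.5, 53.5 and 44.4), Hoxb3 and Hoxb4 were lower by only -0.83, -0.52 and -0.82, and Hoxa5 by -1.37. Hoxb5 was down to 0.501, 0.534 and 0.893 CPM against 20.6, 18.7 and 17.7 (-4.98), and Hoxb6 (ENSMUSG00000000690, chromosome 11) to 0.432, 0.916 and 0.275 against 24.4, 27.6 and 24.2 (-5.46 ± 0.18, edgeR adjusted p = 1.071e-07). Hoxc6 gave 1, 1 and 0 UMIs in Hand2-positive cells against 121, 161 and 186, and Hoxc5 none in any library, which allows up to 0.0683, 0.114 and 0.206 CPM, against 0.638, 0.367 and 0.373 CPM in Hox-positive cells. Hoxa6, Hoxa9, Hoxb9, Hoxc4 and Hoxc8 were lower by at least 4.64 on the log2 scale of the fit, on no more than 4 UMIs in any Hand2-positive library.

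On the D cluster the direction turned: Hoxd4 was found in Hand2-positive cells with 94, 39 and 26 UMIs against 0, 1 and 2 (2.14, 1.49 and 1.79 CPM against 0, 0.0306 and 0.0498, edgeR adjusted p = 6.999e-06), and Hoxd3 with 18, 15 and 12 UMIs against 1, 0 and 0 (edgeR adjusted p = 0.0007279). These overlap on the same strand of chromosome 2, at 74711929 to 74729160 and 74711927 to 74748442, so their UMIs may be shared. Hoxa2, Hoxa3 and Hoxa4 did not pass the test. Hand2-positive cells thus carried Hoxb2 to Hoxb4 of the B cluster and nearly none of its tested genes from Hoxb5 on.

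**Figure D4:**
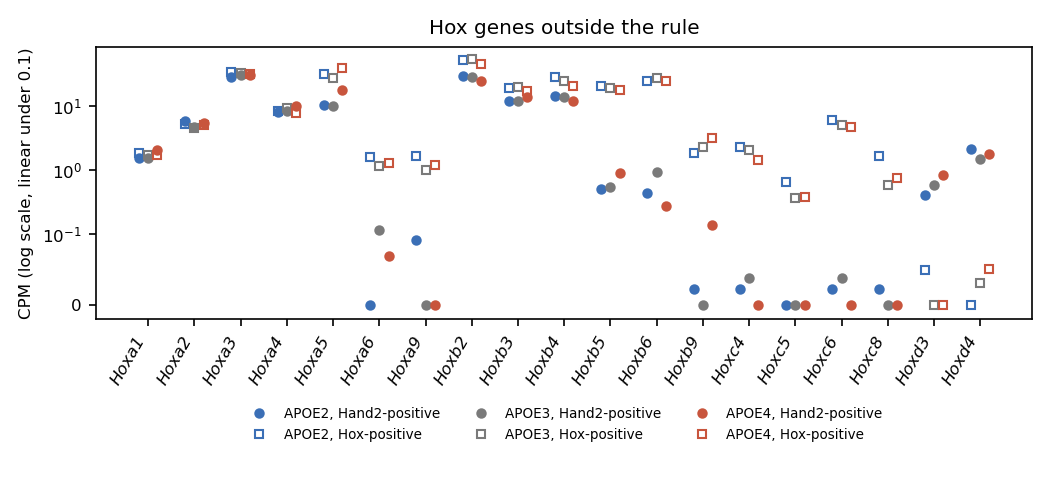
Level in CPM (log axis, linear under 0.1) of the 19 tested Hox genes outside the rule in Hand2-positive (filled circles) and Hox-positive cells (open squares), coloured by library. The circles and squares lie close for Hoxb2 to Hoxb4 and far apart for Hoxb5, Hoxb6 and Hoxc6, and Hoxd3 and Hoxd4 are the higher in Hand2-positive cells.

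Outside the transcription factors, Pde1c (ENSMUSG00000004347, chromosome 6, 56069804 to 56569103), which breaks down cyclic nucleotides when calcium rises, differed most among the higher genes that reached 20 CPM, at 20.8, 23.8 and 24.9 CPM against 1.67, 1.32 and 1.17 (4.15 ± 0.13, edgeR adjusted p = 3.919e-09). Lpl (chromosome 8), which releases fatty acids from lipoproteins, was at 67.4, 58.8 and 38.5 CPM against 9.48, 8.14 and 5.45 (2.88 ± 0.06, edgeR adjusted p = 4.938e-11), and Igfbp4 (chromosome 11), a binding protein for insulin-like growth factors, at 127, 178 and 114 against 15.3, 23.5 and 20.6 (2.85 ± 0.14, edgeR adjusted p = 0.001846). For all of these the lowest Hand2-positive library was well above the highest Hox-positive library. Among the next genes were the DNA helicase Brip1 (2.44), gamma-synuclein Sncg (1.99), the Rac exchange factor Prex2 (1.97), the potassium channels Kcnj15 (1.97) and Kcnt2 (1.84), and the fibril-associated collagen Col14a1 (1.93). The call of Kcnj15 was lost when all cells were thinned to 5000 UMIs (edgeR adjusted p = 0.0788).

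Among the lower genes, Btc, a ligand of the epidermal growth factor receptor, was at 8.10, 9.65 and 7.90 CPM against 42.2, 39.1 and 33.0 (-2.13 ± 0.08, edgeR adjusted p = 9.415e-09), and Fibin, a secreted protein, at 123, 99.5 and 83.8 against 355, 316 and 281 (-1.60 ± 0.05, edgeR adjusted p = 2.309e-09). The matrix glycoprotein tenascin-C (Tnc, -1.94), Vstm2b (-2.42), the diacylglycerol kinase Dgkg (-1.82), Art3 (-1.77), Gpsm2 (-1.76) and the transcription factor Maf (-1.51) were lower too. Rgs5, a brake on G-protein signalling and a pericyte marker, was at 64.8, 104 and 56.8 CPM against 887, 953 and 370 (-3.21 ± 0.31, edgeR adjusted p = 0.0448). Pericyte markers as a whole summed to 205, 228 and 185 CPM against 1113, 1141 and 548, with Rgs5 as the bulk of the latter, and their part in the other differences was not tested. The Rgs5 call was lost without the APOE2 or the APOE3 library (adjusted p up to 0.281), and that of the ephrin receptor Epha3 (12.8, 12.6 and 19.1 CPM against 64.2, 56.2 and 53.0) without APOE3 (adjusted p up to 0.181).

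From the short lists of region genes that the study used to place its clusters along the aorta, leaving out those in the rule, 2 of 4 tested arch genes were higher (Pde1c and Flrt3) and none lower, and 4 of 4 tested descending aorta genes were lower (Tnc, Hoxa6, Hoxb9 and Hoxc6), beside 8.6% higher and 6.62% lower over all genes tested. The direction of the Hox genes among them is close to built in, as said above, so that they are a description.

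Of 24 contractile genes, 2 were higher and 5 lower, beside 8.6% and 6.62% of all genes tested, with a median log2 difference of -0.06 against -0.01 over all genes. Tpm4, a tropomyosin of the cytoskeleton, was higher at 152, 146 and 147 CPM against 99.4, 97.8 and 98.2 (0.63), and myosin light chain kinase, Mylk, by 0.17. Smooth muscle myosin, Myh11, at 2497, 2482 and 2572 CPM against 2933, 2761 and 2876, fell by 0.14, and caldesmon, Cald1, fell by 0.34, with Actg2, Synpo2 and Pdlim3 in between. Leaving out the APOE2 library gave 11 lower contractile genes and leaving out APOE3 gave 1, with the calls of Myh11, Actg2, Synpo2 and Pdlim3 lost there, as was that of Mylk among the higher genes. Of 18 cardiac sarcomere genes, 10 were tested apart from Tnnt2, and only Actn2 (0.56) and Myl4 (0.44) rose, while Tnnt1 (-1.44) and Tnni3 (-1.96, on 12, 7 and 3 UMIs) fell. Of 26 tested calcium handling genes, 3 rose and 8 fell, among them the voltage-gated channel subunits Cacna1c (-0.42), Cacnb2 (-0.41) and Cacna2d1 (-0.34) and the large-conductance potassium channel Kcnma1 (-0.37).

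Receptors for vasoactive agents changed in both directions, with 5 of 21 higher and 7 lower, beside 8.6% and 6.62% of all genes tested, and a median of -0.18. The prostaglandin E2 receptor EP3, Ptger3, was nearly absent at 0.888, 1.18 and 0.412 CPM against 18.3, 14.5 and 8.14 (-4.01 ± 0.16, edgeR adjusted p = 9.415e-09), whereas EP4, Ptger4, which couples to a stimulatory rather than an inhibitory G protein, was higher at 1.48, 1.49 and 2.82 against 0.786, 0.888 and 1.22 (1.01). The angiotensin receptor Agtr1b (-2.37), the ATP-gated channel P2rx1 (-1.78) and the serotonin receptor Htr2a (-0.89) were lower, as were Npr1, Htr1b and Tbxa2r by less. The adrenergic receptor Adra1b (0.88) and both subunits of the nitric oxide receptor, Gucy1a1 (0.35) and Gucy1b1 (0.14), were higher, and so was the endothelin receptor Ednra (0.82), whose call was lost without the APOE3 library (adjusted p up to 0.251). Those of Gucy1b1, Htr1b and Tbxa2r were lost without APOE3 too, and those of Ptger4 and Gucy1b1 without APOE4, so that 3 receptors were higher in either case.

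Of 16 elastic fibre genes tested, 8 rose and 1 fell, beside the same shares of 8.6% and 6.62%, with a median of 0.29. Fibulin-5 (Fbln5), which links elastin to cells, was at 507, 697 and 439 CPM against 329, 525 and 327 (0.53 ± 0.05, edgeR adjusted p = 2.221e-05), Mfap4 at 1107, 849 and 704 against 795, 492 and 419 (0.72), and Fbln2, Efemp1, Mfap2, Emilin1, Lox and Ltbp4 were higher as well. Loxl3 fell by 0.24, with a call lost without the APOE3 or the APOE4 library, and the Mfap4 call was lost when possible doublets were removed. Collagen chains split, with 4 of 18 higher (Col14a1, Col8a1, Col3a1, Col1a2) and 5 lower, of which Col6a3 (-0.72), Col6a2 (-0.58) and Col6a1 (-0.45) together form collagen VI. Without the APOE3 library Col1a2 was not called and 3 collagen chains were lower. In the TGF-beta and BMP pathway 11 of 31 tested genes rose and 3 fell, with a median of 0.04. Bmp4 (1.02), Ltbp2 (0.93) and Bmp2 (0.59) were among the former and Bmp6 (-1.88) among the latter. The activin antagonist Fst was at 12.0, 15.7 and 12.3 CPM against 5.01, 3.27 and 2.29 (2.01), a call lost without the APOE3 or the APOE4 library (adjusted p up to 0.0796), and without APOE3 only 5 genes of the list rose.

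Axon guidance genes, which also steer vessels and neural crest, changed both ways, with 8 of 28 higher and 10 lower, beside 8.6% and 6.62% of all genes tested, or 4 and 6 genes without the APOE3 library. The Slit receptor Robo1 was at 4.80, 2.71 and 4.95 CPM against 1.08, 0.551 and 0.448 (2.67 ± 0.26, edgeR adjusted p = 3.696e-05) and the semaphorin receptor Nrp2 at 4.55, 7.40 and 8.93 against 1.96, 1.62 and 2.31 (1.87 ± 0.18, edgeR adjusted p = 4.074e-05). The ligands Sema3e (-1.23), Ntn4 (-0.95) and Sema3c (-0.67) were lower. Among markers of modulated smooth muscle, which have turned from contraction to matrix production, 5 of 18 rose and 3 fell, to be read against the same shares, with a median of 0.36, and 8 rose without the APOE2 library. The stromelysin Mmp3 was at 28.4, 20.1 and 16.3 CPM against 10.9, 6.70 and 6.92 (1.45), a call lost at the 4% gate, whereas fibronectin, Fn1, was at 231, 377 and 268 against 442, 723 and 529 (-0.91 ± 0.04, edgeR adjusted p = 2.137e-08).

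Among genes of acute responses, beside 8.6% higher over all genes tested, 16 of 26 immediate early and heat shock genes rose and none fell, with a median log2 difference of 0.57. Zfp36, which destabilises cytokine messages, was at 142, 194 and 409 CPM against 65.2, 106 and 233 (0.97 ± 0.06, edgeR adjusted p = 2.284e-05), and the chaperone Hspa1a at 1608, 2492 and 3299 against 956, 1650 and 1944 (0.75). The median share of the whole list was 2.04%, 2.30% and 3.98% of the thinned UMIs in Hand2-positive cells against 1.16%, 1.42% and 2.82% in Hox-positive cells. Of 18 NF-kB response genes, 10 rose and none fell (median 0.59), among them the inhibitor Nfkbia at 319, 324 and 797 CPM against 175, 205 and 543 (0.73) and the adhesion molecule Icam1 (1.49). Lcn2, also called, rested on the APOE2 library, with 36.5, 1.41 and 0 CPM against 8.69, 0.184 and 0. Of 20 interferon response genes, 12 rose and none fell (median 0.49), including Irf7 (1.21), Psmb8 (0.99), Xaf1 (0.93), Isg15 (0.68) and Bst2 (0.48), of which Irf7 and Isg15 were not called at the 4% gate (edgeR adjusted p = 0.0555 and 0.0649).

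Mitochondrially encoded genes of the respiratory chain went the other way: 13 of 13 were lower, with a median of -0.36, whereas 2 of 29 nuclear ones fell and none rose (median -0.05), or 11 fell without the APOE2 library. The complex I subunit mt-Nd1 was at 1224, 962 and 1638 CPM against 1772, 1204 and 2075 (-0.36 ± 0.05, edgeR adjusted p = 0.0002433). Median mitochondrial shares were 1.94%, 1.44% and 2.43% of UMIs in Hand2-positive and 2.78%, 1.77% and 3.15% in Hox-positive cells. These shares, the depth, the immediate early share and the haemoglobin level all moved with the class, and their part in the differences was not tested.

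**Figure D5:**
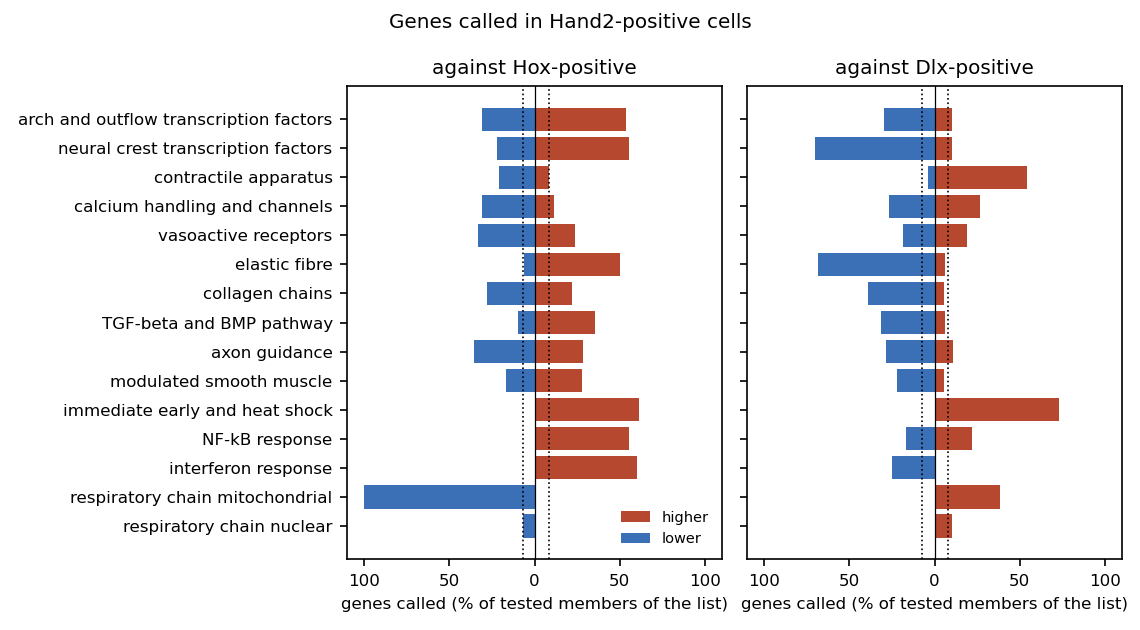
Percent of the tested genes of each list called higher (to the right) or lower (to the left) in Hand2-positive cells, against Hox-positive and against Dlx-positive cells; dotted lines mark the share over all genes tested. Against Hox-positive cells, the mitochondrial respiratory chain list (13 of 13 lower) and the immediate early list (16 of 26 higher) lie well beyond those lines.

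Dlx-positive cells are the other class of smooth muscle with an identity gene set, and 47.3%, 36.1% and 49.0% of them also held a Hand2 UMI. Compared with them, 13 of 24 contractile and 19 of 26 immediate early and heat shock genes were higher in Hand2-positive cells, 11 of 16 elastic fibre genes were lower, and the homeobox gene Prrx2 (-4.38) and the neural crest factor Tfap2b (-6.99) were among the lower genes. Of 12474 genes tested, 980 were higher (7.86%) and 959 lower (7.69%), likewise the shares to set beside the list counts, at an adjusted p under 0.05 in the same edgeR test, with a median log2 difference of 0.01. The Dlx-positive sums rest on 91, 61 and 104 cells, of which 49, 30 and 51 were possible doublets (more than 2 times the median UMIs of gated cells or at least 2 UMIs of another cell type's markers). With those cells left out of both classes, 616 genes were higher and 615 lower, and with the 4% gate 108 and 152. Without the library term the counts were 244 and 460, and leaving out the APOE4 library gave 507 and 587.

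The diacylglycerol kinase Dgkb led the higher genes, at 89.0, 101 and 105 CPM in Hand2-positive cells against 25.5, 30.4 and 17.4 (2.16 ± 0.14, edgeR adjusted p = 7.23e-08). The intermediate filament desmin, Des, was at 184, 155 and 79.4 CPM against 42.6, 28.0 and 33.7 (2.03 ± 0.25, edgeR adjusted p = 0.0116), the small proteoglycan asporin, Aspn, at 121, 112 and 91.8 against 43.0, 40.7 and 16.3 (1.88), and the growth factor Bmp3 at 53.6, 40.7 and 28.6 against 16.2, 20.1 and 11.0 (1.51). In each case the lowest Hand2-positive library exceeded the highest Dlx-positive one. The neuregulin receptor Erbb4 (1.49), Sox6 (1.50), Pde1c (1.68), Nkain2 (1.62), Dock10 (1.56), Bex4 (1.55), Pcsk5 (1.44) and Popdc2 (1.38) followed. At the 4% gate the calls of Des, Pde1c, Nkain2, Dock10, Bex4, Sox6, Erbb4 and Pcsk5 were lost. Tbx20 was higher by 0.64, at 23.9, 24.8 and 27.8 CPM against 21.1, 19.5 and 13.3, a call lost without the APOE4 library.

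The lower genes showed much larger steps. Mdga2, a cell surface protein of neurons, was at 1.50, 0.954 and 1.72 CPM against 176, 166 and 159 (-6.83 ± 0.13, edgeR adjusted p = 4.299e-16), the neural crest factor Tfap2b at 0.250, 0.114 and 0.206 against 29.0, 28.6 and 25.4 (-6.99 ± 0.31, edgeR adjusted p = 5.839e-11), and the paired-type homeobox gene Prrx2 at 6.28, 9.12 and 8.11 against 177, 189 and 152 (-4.38 ± 0.12, edgeR adjusted p = 1.065e-12). Adamtsl1 differed about as much (3.05, 1.34 and 5.15 CPM against 441, 648 and 490), with a call lost without the APOE4 library (edgeR adjusted p = 0.0350 with all libraries, up to 0.0647 among the alternatives). Fgf12, Stk32a, Hs6st3, Adgrd1, Lpar1, Gng2, Tshz2 and Gdf10 were lower by 4.32 to 6.93 on the log2 scale. Neural crest factors as a list were lower, with 7 of 10 down, 1 up and a median of -0.97, and of 10 arch and outflow factors Osr1 (-1.46), Tbx3 (-1.63) and Foxf1 (-1.99) were lower and Tbx20 higher, of which Tbx3 and Tbx20 were not called without APOE4. The Dlx-positive cells were picked by a set that includes the homeobox genes Dlx5, Dlx6 and Msx2. How far that choice sets the direction of these factors, with Prrx2 and Tfap2b among them, was not tested.

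Of 24 contractile genes, 13 were higher and 1 lower, with a median of 0.23. Besides Des, filamin A (Flna) rose by 0.61, Tpm2 by 0.52, Mylk by 0.46 and Myh11 by 0.41, while Actg2 fell by 0.51. Of 16 elastic fibre genes, 11 were lower and 1 higher, with a median of -0.37: elastin, Eln, was at 1105, 1273 and 924 CPM against 1799, 1957 and 1341 (-0.50 ± 0.06, edgeR adjusted p = 1.059e-05), and Mfap5 at 228, 239 and 274 against 927, 867 and 1073 (-1.83). Without APOE2 or without APOE4 7 of these genes were lower, and Eln and Mfap5 were not called at the 4% gate. Fbln5 fell by 0.87 here, although it was the higher side against Hox-positive cells. Of 18 collagen chains, 7 were lower and 1 higher. Sfrp2 was at 158, 224 and 213 CPM against 1511, 1709 and 1267 (-2.80), a call lost when cells were thinned (edgeR adjusted p = 0.0544), and the BMP antagonist Grem1 gave 1, 2 and 0 UMIs against 52, 9 and 15. The osteogenic factor Runx2 (1.16, 1.45 and 0.756 CPM against 17.6, 15.8 and 15.2, -3.73) and the proteoglycan Vcan (-1.16) were lower. The Notch targets Heyl (1.12) and Hey2 (1.10) were higher, within a list of 12 in which 4 rose and 3 fell. Of 26 immediate early and heat shock genes, 19 rose and none fell (median 0.69), and its median share of thinned UMIs in Dlx-positive cells was 1.22%, 0.96% and 3.08%.

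Among the members themselves, each thinned to 5000 UMIs, 1377 genes had a mean of at least 0.5 UMIs in each library, and the median over these genes of the lowest variance-to-mean ratio of the 3 libraries was 1.07, where counting noise alone gives 1. The nuclear RNA Malat1 (lowest ratio over the libraries 55.2), Mgp (29.0), Gm42418 (17.6), the small heat shock protein gene Hspb1 (14.5), Acta2 (13.1), Fos (10.7), mt-Atp6 (8.73), Lars2 (7.70), Tmsb4x (7.53) and Atf3 (7.52) varied most from cell to cell. As a description over cells that share a library, Fos and Atf3, both immediate early transcription factors, rose together (Spearman's rho 0.65, 0.71 and 0.59 in APOE2, APOE3 and APOE4), and so did Hspb1 and Atf3 (0.42, 0.65 and 0.45). Malat1 and Acta2 were opposed (-0.40, -0.42 and -0.42), and matrix Gla protein, Mgp, the inhibitor of wall calcification, was opposed to Myh11 (-0.29, -0.31 and -0.26).

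Between genotypes, the Hand2-positive cells differed in few genes by 2-fold or more, among those at 50 CPM or more in 1 library. From APOE3 to APOE2, 17 of 3042 genes were higher (0.559%) and 9 lower (0.296%). From APOE3 to APOE4, 40 of 3027 were higher (1.32%) and 4 lower (0.132%), and from APOE2 to APOE4, 66 of 3067 were higher (2.15%) and 19 lower (0.619%). These are the shares beside which each list count between genotypes is to be read. All genotype values are ratios of single libraries with exact conditional binomial 95% intervals. The ratio in Hox-positive cells of the same libraries is given beside some, and libraries and genotypes cannot be told apart.

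Although other genes given below had larger ratios, Tnnt2, a marker named with the rule, differed between the libraries within the class. Its log2 ratio was 0.97 (0.92 to 1.01) from APOE3 to APOE2, -0.99 (-1.07 to -0.90) from APOE3 to APOE4 and -1.95 (-2.03 to -1.88) from APOE2 to APOE4. In Hox-positive cells, at a much lower level, the ratios were 0.23, -0.40 and -0.62. Of the contractile list, 0 of 23 genes passed 2-fold from APOE3 to APOE2 or to APOE4. Over all genes, 0.559% were higher and 0.296% lower in the former contrast and 1.32% and 0.132% in the latter. A list of this length would hold few such genes at these shares. From APOE2 to APOE4, 1 contractile gene was lower, beside 0.619% of all genes. It was Des (79.4 against 184 CPM, -1.21, but 0.50 in Hox-positive cells).

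In APOE2 relative to APOE3, the highest ratios were those of the translation factor gene Eif3j2 (72.6 against 5.15 CPM, log2 ratio 3.82, 4.43 in Hox-positive cells) and of the haemoglobins Hbb-bt, Hbb-bs, Hba-a2 and Hba-a1 (2.58 to 3.56). Eif3j2 and Eif3j1 (-1.53) are near-identical copies, so the split of their UMIs is uncertain. The lowest ratios, besides Eif3j1, were those of the cartilage proteoglycan aggrecan, Acan (13.6 against 50.7 CPM, -1.90, -1.08 in Hox-positive cells), Art3 (-1.30, -0.76), Fblim1 (-1.29, -1.26) and Pdzrn4 (-1.13, -0.12).

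In APOE4 relative to APOE3, the haemoglobins were again highest (3.21 to 3.82), followed by Lsmem1 (2.02, 2.40 in Hox-positive cells). Over the alternatives Hbb-bt lay between 3.09 and 3.93 and Hba-a2 between 2.87 and 4.72. The 4 lower genes were Wnt16 (38.5 against 88.0 CPM, -1.19, -0.93 in Hox-positive cells), Fxyd5 (-1.10), the growth factor binding protein Igfbp2 (112 against 236 CPM, -1.08, -0.09) and Mgp (6059 against 12397 CPM, -1.03, -0.86). With possible doublets removed 1 gene was lower. Igfbp2 and Mgp were past 2-fold in only 3 of 7 alternatives each, Fxyd5 in 6 and Wnt16 in all 7. Beside 1.32% of all genes, 5 of 24 immediate early and heat shock genes counted were higher past 2-fold. Their median log2 ratio was 0.51 against -0.08 over all genes. Of 7 NF-kB response genes, 3 were higher past 2-fold (median 0.85). Ier3 was at 579 against 192 CPM (1.59, 1.72 in Hox-positive cells), Nfkbia at 797 against 324 (1.30, 1.40), and Irf1 at 269 against 102 (1.39, 1.67). The 12 mitochondrial respiratory chain genes counted had a median of 0.76, with mt-Atp8 past 2-fold, and of 0.48 with none past it from APOE3 to APOE2.

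In APOE4 relative to APOE2, the highest ratios included Lsmem1 (3.12), Eif3j1 (1.83), Agbl3 (1.83) and the stress gene Gadd45b (1260 against 356 CPM, 1.82, 2.42 in Hox-positive cells). The lowest included Eif3j2 (-3.37), Mpp6 (-2.30, -1.04 in Hox-positive cells), Tnnt2 and the fatty acid binding protein Fabp4 (107 against 310 CPM, -1.53, -1.63).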

How the data were processed

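The authors aligned the reads to mm10 and deposited raw UMI counts per gene (32285 genes) and cell barcode, without normalization; the file headers name Cell Ranger 7.0.1. The study's own cell filter was not applied before deposit, and 26757 of the deposited barcodes passed the limits on genes and mitochondrial UMIs used here.

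Members, comparison classes and all 25 pathway and 11 marker lists were chosen with earlier results of these data known. UMIs were summed per class and library and tested with edgeR 4.0.16 (TMM, filterByExpr, robust quasi-likelihood fit, library as block, since each library supplied both classes) in R 4.3.3, with Benjamini-Hochberg adjustment over all genes tested. The libraries are 3 pools of different genotype, and the block takes out the level of each pool. The p-values therefore measure how evenly the class difference within a library recurs over these pools. The procedure was tested on simulated counts in which the libraries differed only in depth and random noise, so that test does not cover the library term. Genes of the rule and Tnnt2, Pln and Psd received no p. Levels are CPM with exact Poisson 95% intervals, and a count of 0 was given a limit of 3 UMIs. Genes named were the 12 with the largest change per direction among called genes at 20 CPM or more in the higher class and of the same sign in all 3 libraries, the 5 with the highest and the 5 with the lowest ratio between genotypes, the members of the lists and the 10 most variable genes, and a few of these are not reported here. Doublets were kept, except in 1 alternative. Other alternatives were DESeq2 1.42.0, limma-voom (limma 3.58.1), other filters, gates, thresholds and depths, and each library left out. Cells were handled in pandas 2.3.3, scipy 1.17.1 and numpy 2.4.6 under Python 3.11.15. Positions come from GENCODE vM21 for 32158 genes.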

Additional observations from a re-analysis of the deposited data

Results flagged for a closer look

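Des, which encodes the muscle intermediate filament desmin, differed between the genotypes in opposite directions in the Hand2-positive and Hox-positive cells of the same libraries. In Hand2-positive cells it was at 79.4 CPM in APOE4 and 184 in APOE2, a log2 ratio of -1.21 (exact conditional binomial 95% interval -1.30 to -1.13), while in Hox-positive cells the ratio was 0.50 (0.42 to 0.58). The difference between the ratios was not tested, because each genotype has 1 library.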

How the results depend on the processing

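The depth of the libraries limits the rule more than the levels: a cell needs 2 UMIs of scarce transcripts, so the share of Hand2-positive cells moves with the UMIs per cell. It was 11.0%, 4.55% and 2.95% (APOE2, APOE3, APOE4) with the rule applied after thinning to 5000 UMIs, 46.7%, 28.2% and 18.6% at 1 UMI or more of Hand2 and Hand2os1, 23.1%, 15.1% and 7.61% at 3 or more, 32.7%, 19.9% and 11.1% with Acta2 and Tagln at 4% or more, and 38.2% in APOE2 and 13.2% in APOE4 among cells of at least 10000 UMIs. The order of the libraries was the same in all of these.

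The samples of the classes are paired by library, and without the library as a replicate block 161 genes were higher and 104 lower against Hox-positive cells and 244 and 460 against Dlx-positive cells, while 161 of the 201 called list genes against Hox-positive cells were not called. The DESeq2 Wald test gave 795 and 470 against Hox-positive and 573 and 633 against Dlx-positive cells. Leaving out each library in turn gave 726 to 1664 higher and 534 to 1047 lower genes against Hox-positive cells and 507 to 949 higher and 587 to 909 lower genes against Dlx-positive cells. With cells thinned, 626 genes were lower against Hox-positive cells and 481 higher and 493 lower against Dlx-positive cells. With Acta2 and Tagln at 4% or more the Dlx-positive comparison gave 108 and 152, and with possible doublets removed 616 and 615. Without the filter on low counts the median log2 difference from Dlx-positive cells moved to 0.14 and 1433 genes were higher. The genes lower in APOE4 than in APOE3 were 1 with possible doublets removed and 7 at 3 or more Hand2 and Hand2os1 UMIs. The cause of these moves was not tested. Of 129 alternatives of counts and shares, 94 were classed as the same, 20 as weaker, 14 as moved and 1 as stronger. The same here means near the main value within a tolerance, and not an identical value. The genes higher against Hox-positive cells, for instance, were 845 with cells thinned and 1239 without thinning. Of the called list genes, 12 of 163 turned their sign against Dlx-positive cells with Acta2 and Tagln at 4% or more and 2 of 169 with possible doublets removed, and against Hox-positive cells 1 did so in thinned cells and 1 at the 4% gate. The median log2 difference of all genes from Hox-positive cells, -0.01, became 0.0022 without the APOE2 library, and that from Dlx-positive cells, 0.0071, became -0.01 with limma-voom. Among values of single genes, 921 were classed as the same, 59 as moved and 28 as weaker. For single genes, too, the same does not mean an identical value.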

Other observations

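Several signalling and metabolic lists fell outside the comparisons above, and their counts stand beside 8.6% higher and 6.62% lower genes of all tested against Hox-positive cells and 7.86% and 7.69% against Dlx-positive cells. Against Hox-positive cells, 2 of 14 tested Notch pathway genes were higher in Hand2-positive cells, the ligand Jag2 (0.74) and the target Heyl (0.41, 118, 98.4 and 90.6 CPM against 86.7, 81.4 and 69.7 in APOE2, APOE3 and APOE4), and the receptor Notch2 was lower (-0.35), with a median of 0.16 on the log2 scale. Of 12 secreted Wnt pathway genes, the inhibitors Sfrp1 (1.15) and Dkk3 (0.29) were higher and Wnt9a (-0.33) lower, and of 11 genes of the IGF system Igfbp4 and Igf2 (1.35) were higher and Igfbp5 (-1.24) and Igf2r (-0.56) lower. Igfbp5, a matrix-bound binding protein, was at 14.4, 15.0 and 21.4 CPM against 32.0, 37.5 and 56.0, and its call was lost when Acta2 and Tagln had to take at least 4% of UMIs (edgeR adjusted p = 0.107). Of 20 genes of the unfolded protein and stress responses, 9 were higher and none lower (median 0.16), led by Atf5 (0.83), Sesn2 (0.82) and Ppp1r15a (0.71). Of 23 oxidant and antioxidant genes, 4 were higher and 1 lower (median 0.10), and heme oxygenase, Hmox1, at 14.5, 18.1 and 24.9 CPM against 5.65, 7.31 and 13.1, differed most (1.22, edgeR adjusted p = 5.892e-06). Of 26 sterol synthesis and uptake genes, the Apoe row, Vldlr (0.19) and Abcg1 (1.52) were higher and Scd2 (-0.38) was among the lower ones, shares near those over all genes. The counts of the oxidant and sterol lists rose to 9 and 12 higher genes without the APOE2 library.

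Against Dlx-positive cells the directions differed by list. Of 11 IGF genes, 3 were higher and 1 lower, with Igfbp2 at 178, 236 and 112 CPM against 80.8, 80.8 and 54.2 (1.36). Of 12 secreted Wnt genes, Wnt16 (1.21) and Wif1 (0.43) were higher and 4 lower, among them Wnt5b (-1.86) and Sfrp4 (-2.59). Of 26 sterol genes, 8 were lower and 1, Vldlr (0.81), higher, although 1 to 3 were lower with any library left out. Of 20 interferon response genes, 5 were lower and none higher (median -0.28), led by Psmb9 (-1.40) and Psmb8 (-1.36), and of 18 NF-kB response genes 4 were higher and 3 lower. Of 26 calcium handling genes 7 were higher, led by the potassium channel Kcnq5 (1.37), and 7 lower, and of 16 vasoactive receptors the serotonin receptor Htr1b (1.31) and both nitric oxide receptor subunits were higher while Ednra, at 4.35, 2.79 and 2.47 CPM against 19.3, 26.1 and 17.1, was the lowest (-2.56). At the 4% gate, at which few Dlx-positive cells remain, Kcnq5 and Ednra were not called.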
